A study of Mus musculus with 8 samples.

Results

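Polyribosome-associated RNA from the hippocampus was compared between mice that had undergone contextual fear conditioning 6 h earlier and mice given context alone, with 1 library on each side. These 2 libraries were chosen by their labels out of 8 (1 conditioned and 1 control library for each of 2 tissues, frontal cortex and hippocampus, at 1 h and 6 h). All mice were C57Bl/6, 7 to 9 weeks old, and no allele or drug is named in the labels, so the compared groups share the context exposure and differ in the conditioning. The labels give 4 control and 4 conditioned mice, do not say how many mice went into a library, and describe dissection of the prefrontal cortex only. Here the hippocampal origin of the pair was checked in the counts. C1ql2, a secreted synaptic protein of dentate granule neurons, had 49.8 CPM (counts scaled by library size) in control and 22.5 CPM in conditioned mice, against 0.378 and 0 CPM in the cortex control and conditioned libraries at 6 h. Dsp, a desmosomal protein also used as a granule neuron marker, had 76.9 and 38.4 CPM, against 0.189 and 0 CPM. Both 6 h hippocampal libraries therefore carried these 2 messages, which the 6 h cortex libraries almost lacked. The full list of 17 granule neuron markers separated the tissues less sharply. Its summed level was 2033 CPM in control and 949 CPM in conditioned hippocampus, against 542 and 574 CPM in the 6 h cortex libraries. The 1 h libraries labelled conditioned did not separate by tissue in the same way: C1ql2 had 19.7 CPM in the one labelled cortex and 17.2 CPM in the one labelled hippocampus, and neither enters a ratio below.

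In contextual fear conditioning an animal learns to associate a place with a foot shock, and the hippocampus holds the representation of the place. Neuronal firing first induces immediate-early genes such as Fos, Egr1, Npas4 and Arc, and later waves of transcription and translation supply proteins used in memory consolidation. Messages bound by several ribosomes are those being translated. A polyribosome count depends both on how much of a message is present and on how much of it is loaded with ribosomes, and in tissue it also depends on how many cells carry it. Fewer cells of a type, less RNA per cell and lower ribosome loading cannot be told apart here.

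The ratio of each gene is its conditioned over its control count after scaling by the trimmed mean of M-values (TMM), and every CPM value is on that scale. Its 95% counting interval, in square brackets after the ratio, is the exact binomial (Clopper-Pearson) interval of the 2 counts and covers counting error only. The libraries were amplified and the counts carry no molecular identifiers, so reads are not independent molecules. No spread between mice or libraries can be given, there is no test, and a gene is called higher or lower where its whole interval lies beyond 2-fold. The control library held 2370973 counts and the conditioned library 4378917, in a series that runs from 2370973 to 5296986.

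The control library stood apart from the other 7. Its TMM factor was 0.762, against 0.990 to 1.10 elsewhere, and at an equal depth of 1566011 counts without Kif5c it would show 13312 genes, against 14004 in the conditioned library and 14014 to 14286 in the others. The 100 genes with the most counts, Kif5c left out, took 28.1% of its counts, against 21.8% in the conditioned library. Kif5c, the neuronal kinesin-1 motor that carries mRNA granules and vesicles along dendrites and axons, alone took 8.01% of the control library's counts and 0.545% of the conditioned library's. That is 105017 CPM and 5489 CPM, while the other 6 libraries had 359 to 718 CPM. The ratio was 0.0523 (95% counting interval 0.0516 to 0.053), and Kif5c was the most abundant gene of the control library only. It was also far above the other 6 libraries in the conditioned one, at 13.7 [13 to 14.4] times its level in the hippocampal control library at 1 h. Results are therefore also given against that 1 h control, which differs from the conditioned library in time as well as in treatment.

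Of 21643 genes, each represented by the transcript with the highest count summed over the 8 libraries, 12109 had at least 50 counts in all and were compared. In the conditioned library 771 were higher (6.37% of the genes compared) and 525 lower (4.34%). Scaling by total counts, which moved the median log2 ratio of all genes from 0.13 to 0.48, gave 1376 higher and 203 lower. In the cortex at 6 h the same rule called 3 genes higher (0.0248%) and 16 lower (0.132%), and 2 (0.0166%) and 14 (0.116%) after that pair's own GC and length trend, explained below. The spread of the log2 ratio across genes had an SD of 1.07 in hippocampus and 0.40 in cortex. The 2 hippocampal libraries thus differed at many more genes than the 2 cortical ones did, and the rank correlation between the 2 tissues' ratios, across 12109 genes, was -0.004 (a description, since genes are not independent replicates).

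The hippocampal ratio followed the base composition of the transcript. In the decile of genes with the lowest GC content (31.2% to 42.1%) the median log2 ratio was -0.82, with 2 genes called higher and 214 lower. In the decile with the highest GC content (58.5% to 72.3%) it was 1.24, with 273 higher and 2 lower. Transcript length added less: the median log2 ratio ran from 0.65 in the shortest decile to -0.34 in the longest. A smooth trend in GC content and length held 37.0% of the variance of the log2 ratio across 12082 genes, 35.7% for GC content alone and 7.57% for length alone, against 1.27% in the cortex pair. Among 936 genes with at least 1000 counts in the pair the share was 42.2%. The gradient was steeper between the control library at 6 h and that at 1 h (53.1% of the variance, rank correlation with GC content -0.69, against 0.61 for the pair), and the conditioned library also had a gradient against the 1 h control (41.7%, -0.56). After the trend was taken out, 219 genes were higher (1.81% of the genes compared) and 312 lower (2.58%). Ratios are given below both before and after that step.

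**Figure D1:**
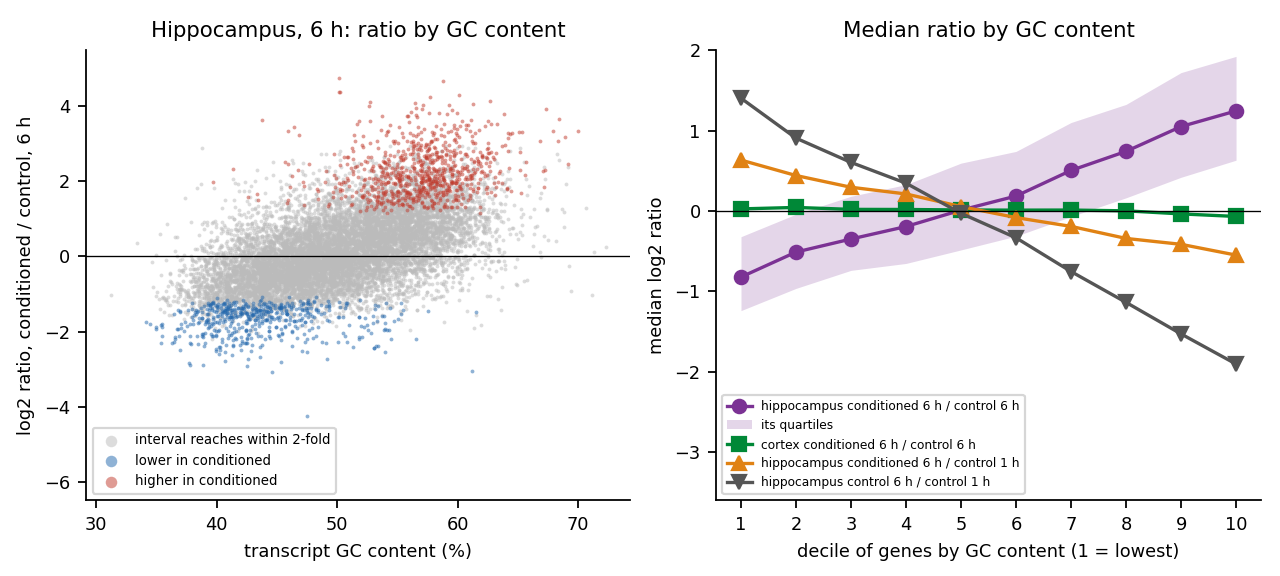
Left, log2 ratio of conditioned over control counts (hippocampus, 6 h) against transcript GC content in percent, 1 point per gene, coloured where the whole 95% counting interval lies beyond 2-fold. Right, median log2 ratio in each decile of genes by GC content for the hippocampal pair (shading, quartiles), the cortex pair at 6 h, and both 6 h hippocampal libraries against the hippocampal control at 1 h. The hippocampal pair climbs from -0.82 to 1.24 while the cortex pair stays between -0.07 and 0.04.

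The composition behind this gradient can be read in the transcripts. The lines below give 60 bases of coding sequence from 2 genes called higher and 3 called lower, G and C in capitals, 5′ to 3′ on the gene's strand, from the GRCm38 transcripts. They were chosen after the ratios were known, to show both ends of the gradient, and each stretch lies in 1 exon.
H2bc7, higher, chr13:23574131-23574190, minus strand, exon 1 of 1: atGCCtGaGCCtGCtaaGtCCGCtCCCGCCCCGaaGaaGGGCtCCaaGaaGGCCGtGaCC
Smim1, higher, chr4:154023394-154023453, minus strand, exon 4 of 4: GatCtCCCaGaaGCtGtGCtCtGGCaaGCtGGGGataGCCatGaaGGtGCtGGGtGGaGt
Ppig, lower, chr2:69749272-69749331, plus strand, exon 14 of 14: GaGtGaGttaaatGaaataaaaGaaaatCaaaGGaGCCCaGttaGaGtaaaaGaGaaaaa
Pter, lower, chr2:12978186-12978245, plus strand, exon 2 of 5: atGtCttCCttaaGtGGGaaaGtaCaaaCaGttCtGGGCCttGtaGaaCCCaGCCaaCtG
Hmgn5, lower, chrX:109006012-109006071, minus strand, exon 6 of 6: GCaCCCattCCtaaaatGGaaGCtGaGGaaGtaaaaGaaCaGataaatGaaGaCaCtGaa
The higher stretches hold 58.3% to 65.0% G and C, and the lower ones 30.0% to 46.7%. Over the whole transcript the values are 60.1% for H2bc7, a histone H2B gene, and 59.2% for Smim1, a small membrane protein. They are 37.8% for Ppig, a nuclear cyclophilin rich in serine and arginine, 38.9% for Pter, a phosphotriesterase-related enzyme, and 40.7% for Hmgn5, a nucleosome-binding protein.

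The side of the pair that departed from the rest of the series was mostly the control. Of the 771 genes called higher, the control library was the lowest of all 8 for 760, and the conditioned library lay within the range of the other 6 for 615. Of the 525 called lower, the control library was the highest of 8 for 517, and the conditioned library lay within the others' range for 426. Among the genes called after the trend, the control library was the lowest for 202 of 219 called higher and the highest for 263 of 312 called lower. These places were read from the scaled CPM, from which the trend was not removed. Over all 12109 genes it was the lowest for 37.9% and the highest for 30.0%. Compared with the hippocampal control at 1 h, the control library at 6 h had 1387 genes higher (11.5%) and 1842 lower (15.2%), and 684 (5.66%) and 477 (3.95%) after the trend. Against that same library, the conditioned library had 106 genes higher (0.875%) and 534 lower (4.41%), and none of the 771 and 4 of the 525 genes kept their call. After the trend 41 were higher (0.339%) and 158 lower (1.31%), with 1 of the 219 and 2 of the 312 genes in common. The part that the control library's own departure has in the values below was not tested beyond these counts.

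Among the genes lowest in the conditioned library after Kif5c was Cdr1, a brain transcript best known for the circular RNA made from its antisense strand. Cdr1 had 4644 control and 1313 conditioned counts (2569 and 302 CPM), a ratio of 0.118 (95% counting interval 0.11 to 0.125) and of 0.143 [0.134 to 0.152] after the trend. No source used here says whether counting used strand, so Cdr1 and its antisense partner cannot be told apart. The conditioned value lay within the other 6 libraries (209 to 1251 CPM) and the control value above them all. Ppig fell from 871 to 116 CPM (ratio 0.133 [0.12 to 0.147], others 28.4 to 214 CPM), and Pter from 382 to 51.3 CPM (0.134 [0.115 to 0.156]). Upf3b, a factor of nonsense-mediated decay, fell to a ratio of 0.127 [0.0926 to 0.172]. Hmgn5 fell to 0.142 [0.115 to 0.175], and Mphosph8, a reader of methylated histone H3, to 0.149 [0.126 to 0.176]. The Golgi-associated Ccdc186 (0.156 [0.137 to 0.178]) and the splicing factor Luc7l3 (0.16 [0.144 to 0.179]) complete the 10 lowest with Meg3, described below. Their GC content runs from 37.8% in Ppig to 49.2% in Meg3, against a median of 50.4% over all genes, and the trend brought Ppig to 0.271 and Luc7l3 to 0.257, both still called lower.

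Other genes stood out once composition was taken out. Slc25a4, the adenine nucleotide translocator of the inner mitochondrial membrane, had 5620 and 3026 counts (3109 and 696 CPM), a ratio of 0.224 [0.214 to 0.234] before and 0.18 [0.172 to 0.188] after the trend. Nefm, the medium neurofilament subunit, fell from 2338 to 447 CPM, a ratio of 0.142 [0.135 to 0.15] after the trend. C1ql3, a secreted protein that organises synapses, fell from 467 to 86.2 CPM (0.138 [0.122 to 0.156]). In all 3 genes the conditioned library lay close to the other 6 (Slc25a4 291 to 737, Nefm 289 to 761, C1ql3 40.3 to 162 CPM) and the control library alone was high. Mbd2, which binds methylated DNA, reached 0.111 [0.0835 to 0.147] after the trend, the neuronal transcription regulator Prdm8 0.145 [0.123 to 0.169], and the ubiquitin ligase Sh3rf3 0.123 [0.0944 to 0.16]. Rbm42, an RNA-binding protein, reached 0.144 [0.112 to 0.186]. Zbtb12 gave the lowest value, 0.0272 [0.00516 to 0.0925], but rests on 19 control and 3 conditioned counts. Slc25a4 and C1ql3 had ratios above 1 in the cortex at 6 h (1.48 [1.41 to 1.56] and 1.32 [1.19 to 1.47]).

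Genes highest in the conditioned library included a protease, an actin regulator and several histones. Ctsd, the lysosomal protease cathepsin D, rose from 14.9 to 185 CPM (12.4 [8.43 to 18.9]; others 134 to 246 CPM). Pfn1, the actin-binding protein profilin 1, rose from 25.4 to 253 CPM (9.94 [7.4 to 13.7]; others 86.2 to 264 CPM). In both the control library was the lowest of the 8, and the conditioned level lay within the other 6, in Pfn1 near their upper end. Smim1 had 8 and 302 counts (15.7 [7.86 to 36.7]). Gm14164, a predicted gene, had 0 and 73 counts, which at a floor of 3 counts for the control library is at least 10.1-fold higher. The histones of this group are described below.

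After the trend Ttr, Tnfaip8l3 and Nsg2, besides 2 histones, joined the 10 highest. Nsg2, a neuronal endosomal protein, had 73 and 1327 counts (40.4 and 305 CPM), a ratio of 6.49 [5.13 to 8.34] after the trend, and 218 to 324 CPM in the other 6 libraries. Tnfaip8l3, a phospholipid transfer protein, had 64 and 622 counts and a ratio of 7.15 [5.53 to 9.41] after the trend. In Tnfaip8l3 the conditioned library, at 143 CPM, was the highest of the 8, and the control library at 35.4 CPM lay within the other 6 (21.5 to 86.7 CPM). Against the 1 h control its ratio was 1.65 [1.45 to 1.88] before the trend and 1.06 [0.93 to 1.21] after it, an interval that includes 1. Ttr, transthyretin, is described with the choroid plexus markers.

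**Figure D2:**
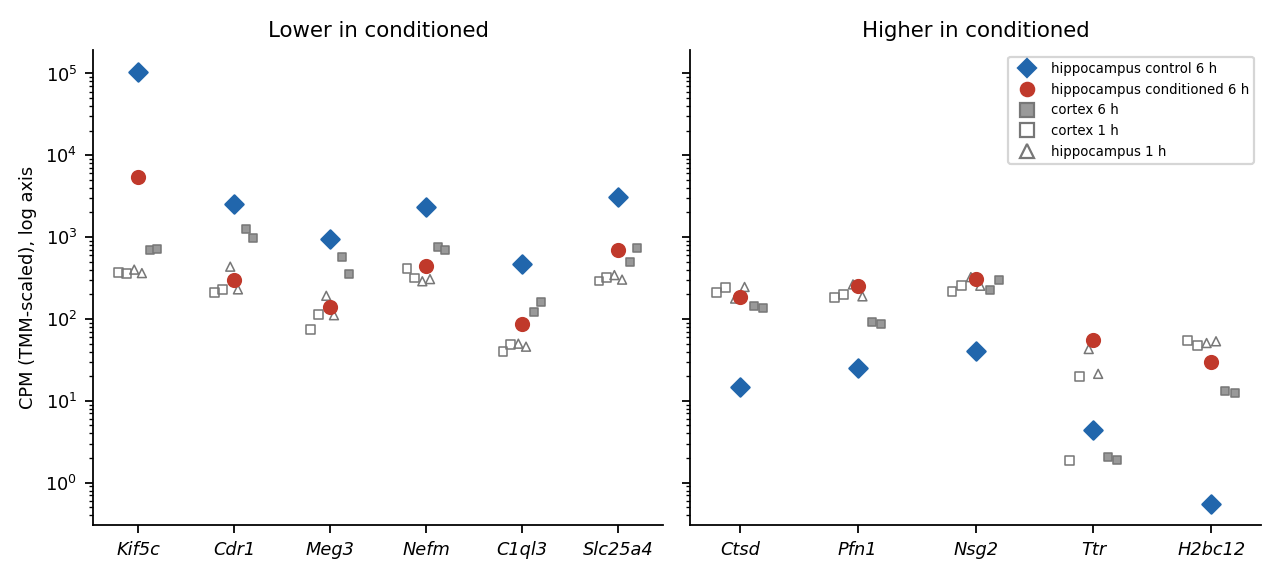
TMM-scaled CPM (log axis) in each of the 8 libraries for 6 genes lower and 5 genes higher in the conditioned library, with the 6 h hippocampal control as a diamond, the conditioned library as a filled circle, and the other 6 libraries in grey. For Ctsd, Pfn1, Nsg2 and H2bc12 the diamond lies below all other symbols. For the genes on the left it lies above them.

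Of the immediate-early transcription factors, Egr3 alone was called higher. Of 30 listed, 24 were compared, with a median log2 ratio of 0.45 before and 0.32 after the trend (all genes 0.13 and 0.03). The 1 higher gene was called before and after the trend (4.17% of the list, against 6.37% of all genes before and 1.81% after), and 1 was called lower after only (4.17%, against 2.58%). These shares rest on single genes. Egr3, a zinc-finger factor induced by synaptic activity, was the higher one, with 15 control and 187 conditioned counts (8.3 and 43 CPM) and a ratio of 5.18 (95% counting interval 3.06 to 9.45), or 4.68 [2.77 to 8.53] after the trend. Its level in the other 6 libraries was 35.5 to 109 CPM, so here too the control library was low. Npas4, an activity-dependent factor that controls inhibitory synapse genes, had only 18 and 20 counts, a ratio of 0.462 [0.232 to 0.926] before and 0.243 [0.122 to 0.487] after the trend. It is the one called lower, and its cortex ratio was 0.287 [0.194 to 0.416]. Npas4 stood at 4.6 CPM in the conditioned library, below the other 7.

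The most studied immediate-early genes gave ratios within the 2-fold rule. Fos had 4 control and 6 conditioned counts (0.624 [0.148 to 3.0]), an interval so wide that a 2-fold change in either direction was not detectable at this depth. Junb, its dimer partner, had 7 and 30 counts (1.78 [0.767 to 4.81]). Egr1 was well counted, at 366 and 1165, with a ratio of 1.32 [1.18 to 1.49] before and 0.963 [0.855 to 1.09] after the trend. Its CPM of 202 and 268 were the lowest of the 8 libraries (others 364 to 1616). Nr4a1, an orphan nuclear receptor, had 11 and 88 counts, a ratio of 3.33 [1.77 to 6.9] before and 1.74 [0.925 to 3.61] after. Arc, a capsid-forming protein that promotes AMPA receptor removal, had 43 and 178 counts, a ratio of 1.72 [1.23 to 2.46] before and 0.821 [0.585 to 1.17] after. For Egr1, Nr4a1 and Arc the interval lay above 1 before the trend and included 1 after it.

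Among activity-regulated effectors and growth factors, 30 of 33 listed genes were compared and the median log2 ratio was 0.05 before and 0.08 after the trend. Before the trend 2 were lower (6.67% of the list, against 4.34% of all genes), and after it none was called. Homer1, a scaffold that links metabotropic glutamate receptors to calcium stores, fell from 228 to 96.8 CPM (0.424 [0.369 to 0.487]). Rgs2, an inhibitor of G protein signalling, fell from 139 to 45.5 CPM (0.327 [0.27 to 0.395]). Their GC contents are 41.3% and 43.6%, and their ratios after the trend were 0.672 [0.586 to 0.772] and 0.458 [0.378 to 0.554]. Bdnf, the neurotrophin that signals through TrkB, had 51 and 120 counts and nearly equal levels, 28.2 and 27.6 CPM (0.978 [0.699 to 1.39]; 1.62 [1.16 to 2.3] after the trend). Camk2a, the kinase needed for hippocampal long-term potentiation, had 2711 and 4829 CPM, within the 2-fold rule (1.78 [1.73 to 1.84]; 1.39 [1.35 to 1.43] after). Its conditioned level was the highest of the 8 libraries (others 3320.5 to 3696 CPM) and its control level the lowest.

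Genes that glucocorticoids induce were read as a stress readout. Of 20 compared, 1 was lower before the trend, and 1 was higher and 1 lower after it. Each is 5% of the list, against 4.34% of all genes lower before and 1.81% higher and 2.58% lower after. Klf9, a glucocorticoid-induced zinc-finger factor, fell from 960.4 to 164 CPM (0.171 [0.156 to 0.186]; 0.198 [0.182 to 0.217] after), with 84 to 274 CPM in the other 6. Tsc22d3, which encodes the anti-inflammatory protein GILZ, had 3 and 44 counts (6.34 [2.03 to 31.9] after the trend). Fkbp5, the chaperone that restrains the glucocorticoid receptor, had 47 and 105 counts (0.929 [0.652 to 1.34]) and the kinase Sgk1 68 and 131 (0.801 [0.593 to 1.09]). The called members after the trend, Klf9 and Tsc22d3, thus pointed in opposite directions, and Fkbp5 and Sgk1 were not called. Of 16 MAP kinase phosphatases and feedback inhibitors, none was called before the trend and 2 were lower after it, the phosphatases Dusp8 (0.296 [0.23 to 0.381]) and Dusp7 (0.40 [0.333 to 0.48]). These 2 are 12.5% of that list, against 2.58% of all genes.

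**Figure D3:**
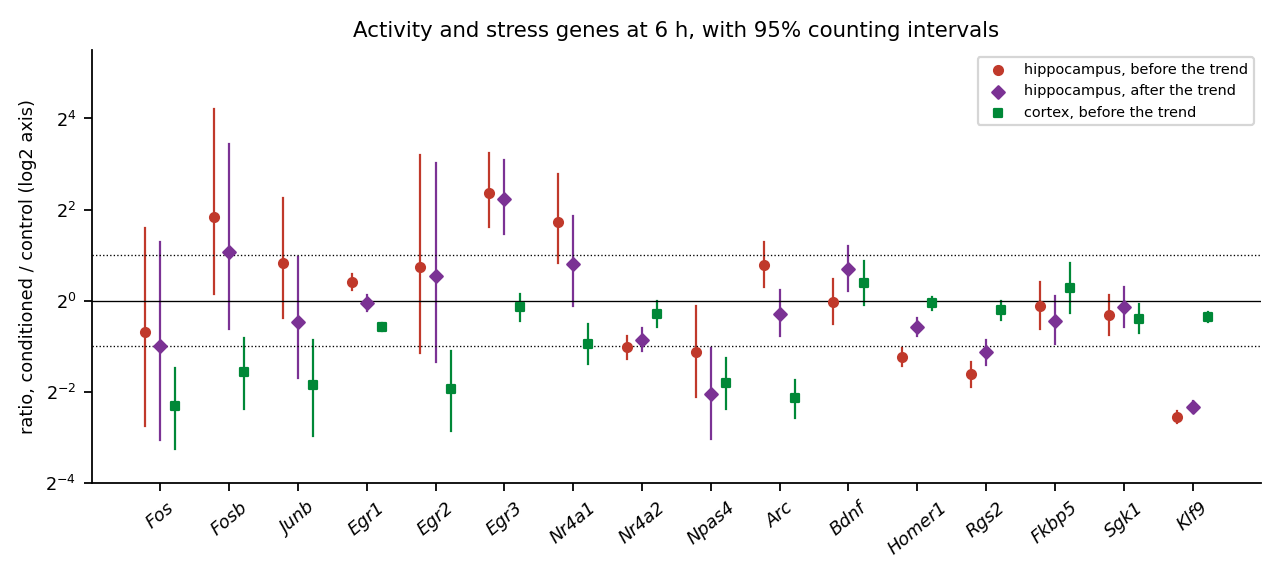
Ratio of conditioned over control counts (log2 axis) with 95% counting intervals for 16 activity and stress genes in hippocampus before and after the GC and length trend, and in cortex before the trend. Dotted lines mark 2-fold. In hippocampus Egr3 lies wholly above 2-fold and Klf9 wholly below, both before and after the trend. Rgs2 and Homer1 lie wholly below before the trend only and Npas4 after it only, and Fos spans both lines.

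Replication-dependent histone genes formed the list furthest from all genes after the trend. Before it the 5 globin genes compared, 4 of which carry the counts of another gene, had a higher median (1.99). Replication-dependent histone messages end in a stem-loop in place of a poly(A) tail, and their proteins package newly made DNA. Of 64 genes, 61 were compared, and 28 were higher and none lower before the trend (14 and none after it). The higher ones are 45.9% of those compared before and 23.0% after, against 6.37% and 1.81% of all genes. The median log2 ratio was 1.84 before and 1.46 after, against 0.13 and 0.03 for all genes, and -0.44 in the cortex pair after its trend. Against the 1 h control the median was -0.75 before the trend and 0.28 after it, so its direction turned with the trend. The copies are nearly identical in sequence, so the counts of single genes are uncertain, and H2bc23 and H4bc24 carry the same counts.

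The difference was uneven between histone classes, a split made after the values were seen. The 16 H2B genes compared had control counts of 1 to 36 (median 2) and conditioned counts of 3 to 250 (median 96), and 14 were called higher before and 10 after the trend. Their median level was 1.11 CPM in control and 22.1 CPM in conditioned mice, 37.9 CPM in the hippocampal control at 1 h, and 10.7 and 9.92 CPM in the cortex control and conditioned libraries at 6 h. The 16 H2A genes had control counts of 0 to 4 and conditioned counts of 24 to 56. Of these, 13 were called higher before the trend, close to H2B, but 2 after it, fewer than the 10 of H2B. For both classes the control library had the lowest median of the 8 libraries. The same held for the linker histones H1 (4.43 CPM) and for H3 (1.38 CPM), but not for H4. In H1 and H3 the next lowest was the conditioned cortex at 6 h, at 5.91 and 1.53 CPM. The 12 H4 genes compared had 2 to 140 control counts and 27 to 468 conditioned counts, with medians of 17.7 and 26.4 CPM. Of these, 1 was called higher before the trend and 1 after it. H4bc24, which carries the counts of H2bc23, is not among these 12. The H4 control median was close to the 18.3 CPM of the cortex control at 6 h. The 12 H3 genes had medians of 1.38 and 4.60 CPM and none was called. After the trend the class medians of the log2 ratio were 2.71 for H2B, 1.79 for H2A, 0.95 for the linker histones H1, 0.19 for H3 and -0.18 for H4.

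Single H2B genes show the size of the step. H2bc12 had 1 control and 131 conditioned counts, a ratio of 54.5 [9.61 to 2167]. H2bc7 had 1 and 100 (41.6 [7.29 to 1658]), H2bc9 2 and 92 (19.1 [5.15 to 160.3]), and H2bc22 2 and 121 (25.2 [6.81 to 210.1]). H2bc6, better counted in the control library than these, had 9 and 137 counts (6.33 [3.24 to 14.1]), or 7.77 [3.97 to 17.4] after the trend. With 1 to 3 control counts these ratios are loose, but every lower bound given here before the trend is above 3. In the other 6 libraries H2bc12 had 12.4 to 54.1 CPM, a range that holds its conditioned level of 30.1 CPM and lies above its control level of 0.553 CPM.

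The classes also differ in their promoters, and both the motifs searched and the promoters printed were chosen after the counts of the classes were known. The 200 bases before the start of each histone gene, from RefSeq on GRCm38.p6, were searched on both strands for the octamer ATTTGCAT, which H2B promoters are known for, the TATA box TATAAA and the CCAAT box. The octamer was in 6 of 14 H2B and 6 of 17 H2A promoters and in none of the 6 H1, 10 H3 and 12 H4 promoters matched, against 1.39% of all 27025 promoters of that length. A CCAAT box was in all 17 H2A, all 14 H2B and all 6 H1 promoters, in 8 of 10 H3 and in 3 of 12 H4 promoters, and in 30.0% of all promoters. The H3 genes, of which none was called, thus mostly hold it too. TATAAA was in 7 of 17 H2A, 5 of 14 H2B, 4 of 6 H1, 4 of 10 H3 and 5 of 12 H4 promoters, and in 10.6% of all. These matches are letters in a window and no binding was measured. The promoters of 2 H2B genes and 1 H4 gene are shown, 5′ to 3′ on the gene's strand, with the searched motifs on either strand in capitals.
H2bc12, chr13:22035621-22035820, plus strand: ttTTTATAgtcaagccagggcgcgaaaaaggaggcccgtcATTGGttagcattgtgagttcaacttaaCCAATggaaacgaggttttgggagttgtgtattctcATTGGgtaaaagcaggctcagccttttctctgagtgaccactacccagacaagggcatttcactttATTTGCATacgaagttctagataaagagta
H2bc7, chr13:23574208-23574407, minus strand: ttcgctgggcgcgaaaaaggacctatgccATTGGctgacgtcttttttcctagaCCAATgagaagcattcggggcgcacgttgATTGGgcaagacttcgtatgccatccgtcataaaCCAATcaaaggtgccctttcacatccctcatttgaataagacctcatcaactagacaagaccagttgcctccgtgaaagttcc
H4c1, chr13:23761250-23761449, minus strand: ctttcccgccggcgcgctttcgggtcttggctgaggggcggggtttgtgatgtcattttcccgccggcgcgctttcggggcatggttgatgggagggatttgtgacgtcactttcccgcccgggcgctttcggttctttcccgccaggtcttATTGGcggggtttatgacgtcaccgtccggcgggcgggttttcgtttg
H2bc12 carries all 3 motifs, H2bc7 only CCAAT boxes, and H4c1 a single CCAAT box, although both H2B genes were called higher.

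**Figure D4:**
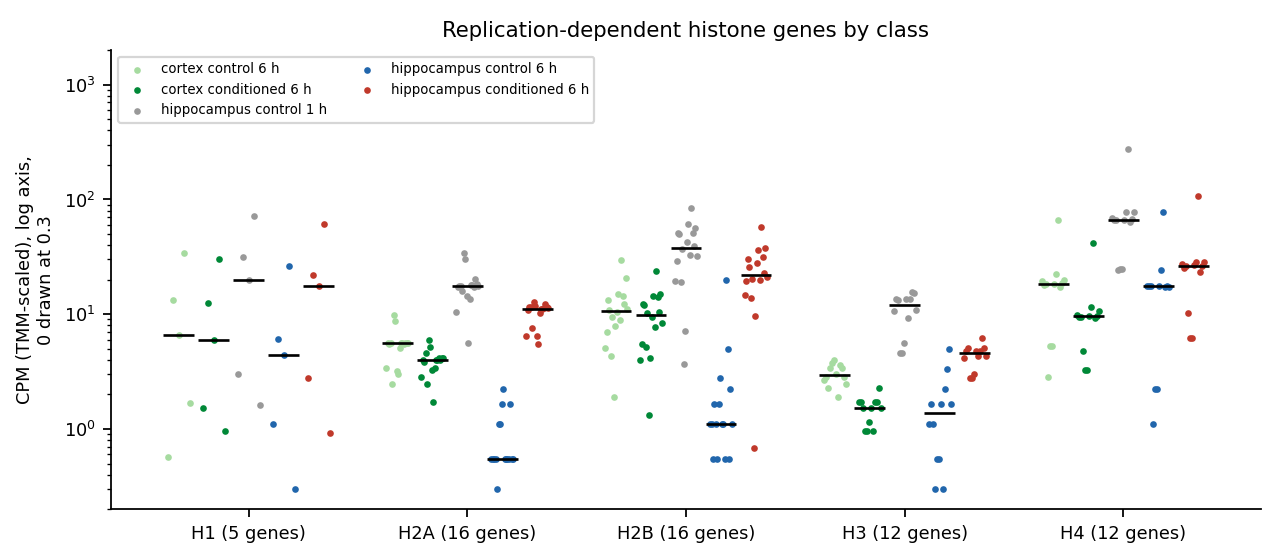
TMM-scaled CPM (log axis, 0 drawn at 0.3) of the replication-dependent histone genes by class in 5 libraries, 1 point per gene and a bar at the median. In H2A and H2B the median of the 6 h hippocampal control lies under those of the other libraries (H2B median 1.11 CPM). Its median is also the lowest in H1 and H3, while in H4 its median of 17.7 CPM is near the cortex control.

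Protein synthesis genes were read as separate lists. Of 83 cytosolic ribosomal protein genes compared, 9 were higher and none lower before the trend, and 3 were higher after it. The higher ones are 10.8% of the list before and 3.61% after, against 6.37% and 1.81% of all genes. The list's median log2 ratio fell from 0.64 to 0.11 when the trend was removed. Rpl14, of the large subunit, had 3 and 119 counts (16.5 [5.51 to 81.1]; 12.2 [4.07 to 59.9] after), and Rps15a and Rps3, of the small subunit, gave 3.39 and 3.0 [2.05 to 4.52] after the trend. Of 78 mitochondrial ribosomal proteins 3 were higher before and 1 after the trend, with medians of 0.52 and 0.35. These are 3.85% and 1.28% of the list, both below the shares of all genes. Mrpl55, the one called after the trend, had 0 and 32 counts, at least 4.43-fold higher at the floor of 3 counts. Cytosolic ribosomal protein genes sat at lower levels in the conditioned library than in the 1 h control, with a median log2 ratio of -1.60 before and -0.60 after the trend. For the mitochondrial ones these medians were -0.79 and -0.27.

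Of 63 translation factors compared, 7 were higher and 5 lower before the trend and 1 and 3 after it. These are 11.1% and 7.94% of the list before and 1.59% and 4.76% after, against 6.37%, 4.34%, 1.81% and 2.58% of all genes. Eif5b, which joins the ribosomal subunits, fell from 812 to 158 CPM (0.195 [0.177 to 0.213]; 0.303 [0.276 to 0.332] after). Eif1ax, a start-codon scanning factor, fell before the trend (0.226 [0.18 to 0.283]) and was not called after it (0.407 [0.324 to 0.509]). Eif3a, the scaffold of the eIF3 complex, had a ratio of 0.324 [0.299 to 0.35], while 3 other eIF3 subunits lay on the other side: Eif3l 3.36 [2.35 to 4.95], Eif3h 3.15 [2.14 to 4.77] and Eif3g 2.69 [2.01 to 3.65]. Eif3a has a GC content of 44.5% and these 3 have 51.3% to 55.8%. After the trend Eif3a was still lower (0.451 [0.417 to 0.489]) and the other 3 were not called. Among 39 tRNA synthetases, 2 were higher (5.13%) and 1 lower (2.56%) before the trend, and 1 was higher after it (2.56%). The lower one was Iars2, the mitochondrial isoleucyl-tRNA synthetase (0.37 [0.287 to 0.476]; 0.448 [0.347 to 0.577] after). Lars2, the mitochondrial leucyl-tRNA synthetase, rose from 474 to 1221 CPM (2.58 (95% counting interval 2.4 to 2.78), 2.36 [2.19 to 2.54] after), and went the other way in cortex (0.168 [0.158 to 0.179]). In the other 6 libraries Lars2 ran from 236 to 4106 CPM, the lowest being the conditioned cortex at 6 h.

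Of 78 oxidative phosphorylation genes compared, 7 were higher and 1 lower before the trend, and 1 higher and 3 lower after it (medians 0.75 and 0.17). The shares are 8.97% and 1.28% of the list before and 1.28% and 3.85% after, against 6.37%, 4.34%, 1.81% and 2.58% of all genes. Atp5g1, a subunit of the ATP synthase membrane ring, rose from 23.8 to 124 CPM (5.21 [3.82 to 7.29]), and was not called after the trend (2.39 [1.75 to 3.35]). Atp5b, the catalytic subunit of the same enzyme, had 7378 and 10010 counts and fell to 0.461 [0.447 to 0.475] after the trend. Cox7a2l, an assembly factor of respiratory supercomplexes, was the one higher after it (6.84 [2.83 to 21.5]), on 5 and 95 counts.

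Synaptic genes did not move together. Of 48 vesicle and release genes, 5 were higher and 3 lower before the trend and 2 and 5 after it, with medians of 0.16 and 0.01. These are 10.4% and 6.25% of the list before and 4.17% and 10.4% after, against 6.37%, 4.34%, 1.81% and 2.58% of all genes. Syp, the vesicle membrane protein synaptophysin, rose from 345 to 1603 CPM (4.65 [4.29 to 5.06]; 2.51 [2.31 to 2.73] after), and Sv2a, a vesicle glycoprotein, from 42.6 to 169.5 CPM (2.78 [2.2 to 3.57] after). Syn1, a synapsin that tethers vesicles to actin, fell from 2763 to 1009 CPM (0.365 [0.351 to 0.38]; 0.189 [0.181 to 0.196] after), as did Syn3 (0.19 [0.161 to 0.225] after). Syp and Syn1 have nearly the same GC content, 56.6% and 57.6%, so the trend shifted both alike. In the other 6 libraries Syp had 1176 to 1818 CPM and Syn1 1004 to 1540.3 CPM, so the control library was outside on both. The conditioned library's Syn1 level of 1009 CPM was near the lowest of the others.

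Of 40 postsynaptic scaffold and adhesion genes, 8 were higher and 6 lower before the trend, and 1 higher and 3 lower after it. These are 20% and 15% of the list before and 2.5% and 7.5% after, against 6.37%, 4.34%, 1.81% and 2.58% of all genes. The GC-rich Nrxn2 (4.5 [3.16 to 6.6]), Dlgap3 (4.67 [2.99 to 7.69]) and Shank3 (4.03 [2.74 to 6.13]) were higher, and the GC-poor adhesion gene Lrrtm2 (0.292 [0.254 to 0.335]) lower. None of these 4 was called after the trend, which left Nlgn3, a neuroligin, higher (3.08 [2.56 to 3.73]) and Nrgn, the calmodulin-binding neurogranin, lower (0.267 [0.248 to 0.288]). Nrgn was lower in cortex as well (0.524 [0.49 to 0.562]). The remaining called genes were Lrrc7 (0.407 [0.377 to 0.439]) and Cadm2 (0.398 [0.365 to 0.435]), both lower.

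Receptor genes gave 2 calls after the trend, both lower, and kinase pathway genes 4. Of 30 ionotropic glutamate receptor genes 3 were higher and 2 lower before it and 1 lower after it, Shisa6, an AMPA receptor auxiliary protein (0.217 [0.199 to 0.238]). The shares were 10% and 6.67% before and 3.33% lower after, against 6.37%, 4.34% and 2.58% of all genes. Shisa6 had 492 and 262 CPM against 255 CPM in the 1 h control, so the conditioned level lay near that of the 1 h control. Of 15 GABA-A receptor genes and anchors, 1 was higher and 2 lower before the trend and 1 lower after it, Gabra5, the subunit of extrasynaptic hippocampal receptors, from 633 to 203 CPM (0.366 [0.335 to 0.40] after). The shares of this list were 6.67% and 13.3% before and 6.67% lower after. The list's median of -0.69 before the trend became -0.22 after it. Among 38 calcium and cAMP signalling genes, 2 were higher and 3 lower before the trend and 1 and 3 after it, or 5.26% and 7.89% of the list before and 2.63% and 7.89% after, against 6.37%, 4.34%, 1.81% and 2.58% of all genes. Prkcb, a calcium-dependent protein kinase C, fell from 4102 to 1346 CPM (0.309 [0.299 to 0.32] after the trend). Ppp3ca, the catalytic A subunit of calcineurin, fell from 6370.4 to 1213 CPM (0.222 [0.215 to 0.229] after the trend). Its paralog Ppp3cb had 377 and 499.5 CPM and was higher after the trend (2.31 [2.12 to 2.52]), with 639 to 1079 and 193 to 503 CPM for the 2 genes in the other 6 libraries. Calm2 and Calm3 encode the same calmodulin protein. Calm2 fell from 9499 to 3006 CPM (0.316 [0.309 to 0.324]; 0.411 [0.402 to 0.42] after), and Calm3 rose from 289.9 to 898 CPM (3.1 [2.83 to 3.4]; 1.48 [1.35 to 1.62] after), with GC contents of 42.7% and 58.3%.

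Long noncoding and splicing-related messages lay on the low side. Of 17 long noncoding RNAs compared, 2 were higher and 6 lower before the trend, and none higher and 3 lower after it, with medians of -0.52 and -0.56. These are 11.8% and 35.3% of the list before and 17.6% lower after, against 6.37%, 4.34% and 2.58% of all genes. Malat1, a nuclear RNA of splicing speckles, fell from 14499 to 2926 CPM (0.202 [0.198 to 0.206]; 0.33 [0.323 to 0.337] after), and the imprinted Meg3 from 943 to 141 CPM (0.15 [0.137 to 0.165]; 0.194 [0.176 to 0.212] after). Gas5, a host of small nucleolar RNAs, fell to 0.285 [0.202 to 0.398] after the trend. The cortex ratios of these 3 were also below 1, at 0.649 [0.635 to 0.663], 0.614 [0.58 to 0.651] and 0.377 [0.263 to 0.533], with no call. In the other 6 libraries Malat1 had 512 to 3963 CPM and Meg3 75.3 to 575 CPM, both of which contain the conditioned value. The 2 genes of this list called higher before the trend were Rmrp and Rpph1, and neither was called after it. Malat1 and Meg3 are mainly nuclear RNAs, but how much nuclear RNA each library held was not tested. A list of 46 SR-related splicing factors, put together after the values of its leading members were seen, had 2 genes higher and 13 lower before and 2 and 8 after the trend. Its shares were 4.35% and 28.3% before and 4.35% and 17.4% after. Besides Ppig and Luc7l3, Prpf38b fell to 0.201 [0.172 to 0.235] and Rbm25 to 0.326 [0.296 to 0.359] after the trend, while Srsf3, itself an SR protein, rose (4.41 [3.37 to 5.86]).

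Cell type markers were checked in the same pair. Of 17 dentate granule neuron markers, 3 were lower before and 2 after the trend and none higher, with C1ql2 at 0.186 [0.138 to 0.25] and C1ql3, given above. The lower ones are 17.6% of the list before and 11.8% after, against 4.34% and 2.58% of all genes. Prox1, the transcription factor that defines granule neurons, had 462 and 853 counts and 256 and 196 CPM (0.768 [0.685 to 0.861]), so the defining marker stayed within 2-fold. The summed level of the list was 2033 CPM in control mice, 949 CPM in the conditioned library and 692 CPM in the 1 h control. Of 24 pyramidal neuron markers of the CA fields, 3 were higher and 2 lower before the trend and 3 lower after it. Tspan18 (0.262 [0.196 to 0.349]), Pcp4 (0.364 [0.329 to 0.403]), a calmodulin-binding peptide of CA2 neurons, and Neurod2 (0.411 [0.353 to 0.481]) were the lower ones. The shares are 12.5% and 8.33% before and 12.5% lower after, against 6.37%, 4.34% and 2.58% of all genes. Of 23 cortical markers none was called after the trend.

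Choroid plexus markers were higher in the conditioned library on 1 gene. Ttr, the thyroid hormone carrier secreted by the choroid plexus, had 8 and 239 counts (4.43 and 55 CPM), a ratio of 12.4 [6.2 to 29.1] before and 13.1 [6.56 to 30.8] after the trend. Of the 6 markers compared out of 14, Ttr alone was called, and Kl, another choroid plexus gene, had 11.1 and 20 CPM (1.81 [1.1 to 3.11]). The summed level of the list was 29.9 CPM in control mice, 89 CPM in the conditioned library and 75.6 CPM in the hippocampal control at 1 h. How much choroid plexus each dissection held was not tested. Of the blood globins, Hbb-bt had 2 and 45 counts (9.35 [2.44 to 79.6]) and Hbb-b2 carried the same counts. None of 14 microglia markers was called before or after the trend.

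Oligodendrocyte and astrocyte markers held a few called genes each. Of 19 oligodendrocyte markers 4 were higher and none lower before the trend, and 1 higher and 2 lower after it. Mbp, the myelin basic protein, rose from 130.0 to 409 CPM (3.15 [2.74 to 3.62]), not called after the trend (1.25 [1.09 to 1.44]). Mag, a myelin adhesion protein, stayed higher (4.69 [2.1 to 13]), whereas Olig2, the lineage factor, and Mobp, another myelin protein, were lower (0.222 [0.153 to 0.322] and 0.403 [0.339 to 0.48]). Of 18 astrocyte markers 3 were higher and 1 lower before and 1 each after the trend. Over all genes 6.37% were higher and 4.34% lower before, and 1.81% and 2.58% after, and the counts after the trend are too small to set against these shares. Aldoc, the brain aldolase, fell from 1416 to 413 CPM (0.189 [0.178 to 0.201]), and Mlc1, an astrocyte membrane protein, rose (5.51 [2.26 to 17.4]). Apoe, the main brain apolipoprotein, rose before the trend only (4.52 [3.28 to 6.39]; 1.89 [1.37 to 2.68] after).

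Motor, cytoskeletal and degradation genes complete the lists with several calls. Of 37 kinesin and dynein motor genes compared, 4 were higher and 4 lower before the trend, and 1 each after it, the dynactin subunit Dctn3 (5.24 [2.71 to 11.6]) and Kif5c. The other kinesin-1 heavy chain called before the trend, Kif5b, had 732 and 676 counts (0.384 [0.345 to 0.427]; 0.658 [0.591 to 0.731] after), so its difference was far smaller than that of Kif5c. Klc2, a light chain of the same motor, was on the other side (5.03 [3.69 to 7.0]). The motor calls are 10.8% each way before and 2.70% each way after. Over all genes 6.37% were higher and 4.34% lower before, and 1.81% and 2.58% after. Of 39 proteasome genes 2 were higher before (5.13%) and 1 after the trend (2.56%), the core subunit Psmb2 (2.92 [2.09 to 4.17]). Of 39 chaperone genes 2 were higher and 2 lower before the trend (5.13% each), and 1 and 2 after it (2.56% and 5.13%). Hspa5, the chaperone of the endoplasmic reticulum, rose (2.97 [2.32 to 3.85]), while Hspa4 and Hsp90ab1 of the cytosol fell (0.37 [0.343 to 0.399] and 0.468 [0.454 to 0.482]). A list of 34 lysosomal genes, added after Ctsd was seen, had 7 higher (20.6%) and none lower before the trend. After it 3 were higher (8.82%) and none lower, with Ctsb at 2.69 [2.23 to 3.26] and Glb1, on 1 control count and 41 conditioned counts, at 12.4 [2.1 to 499.7]. A cytoskeletal list of 32 genes, likewise added, had 4 higher and 3 lower before (12.5% and 9.38%) and 2 and 4 after the trend (6.25% and 12.5%). Stmn3, a microtubule destabiliser, rose (3.58 [2.58 to 5.1]), and Nefh, the heavy neurofilament subunit, fell with Nefm (0.264 [0.221 to 0.316]).

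**Figure D5:**
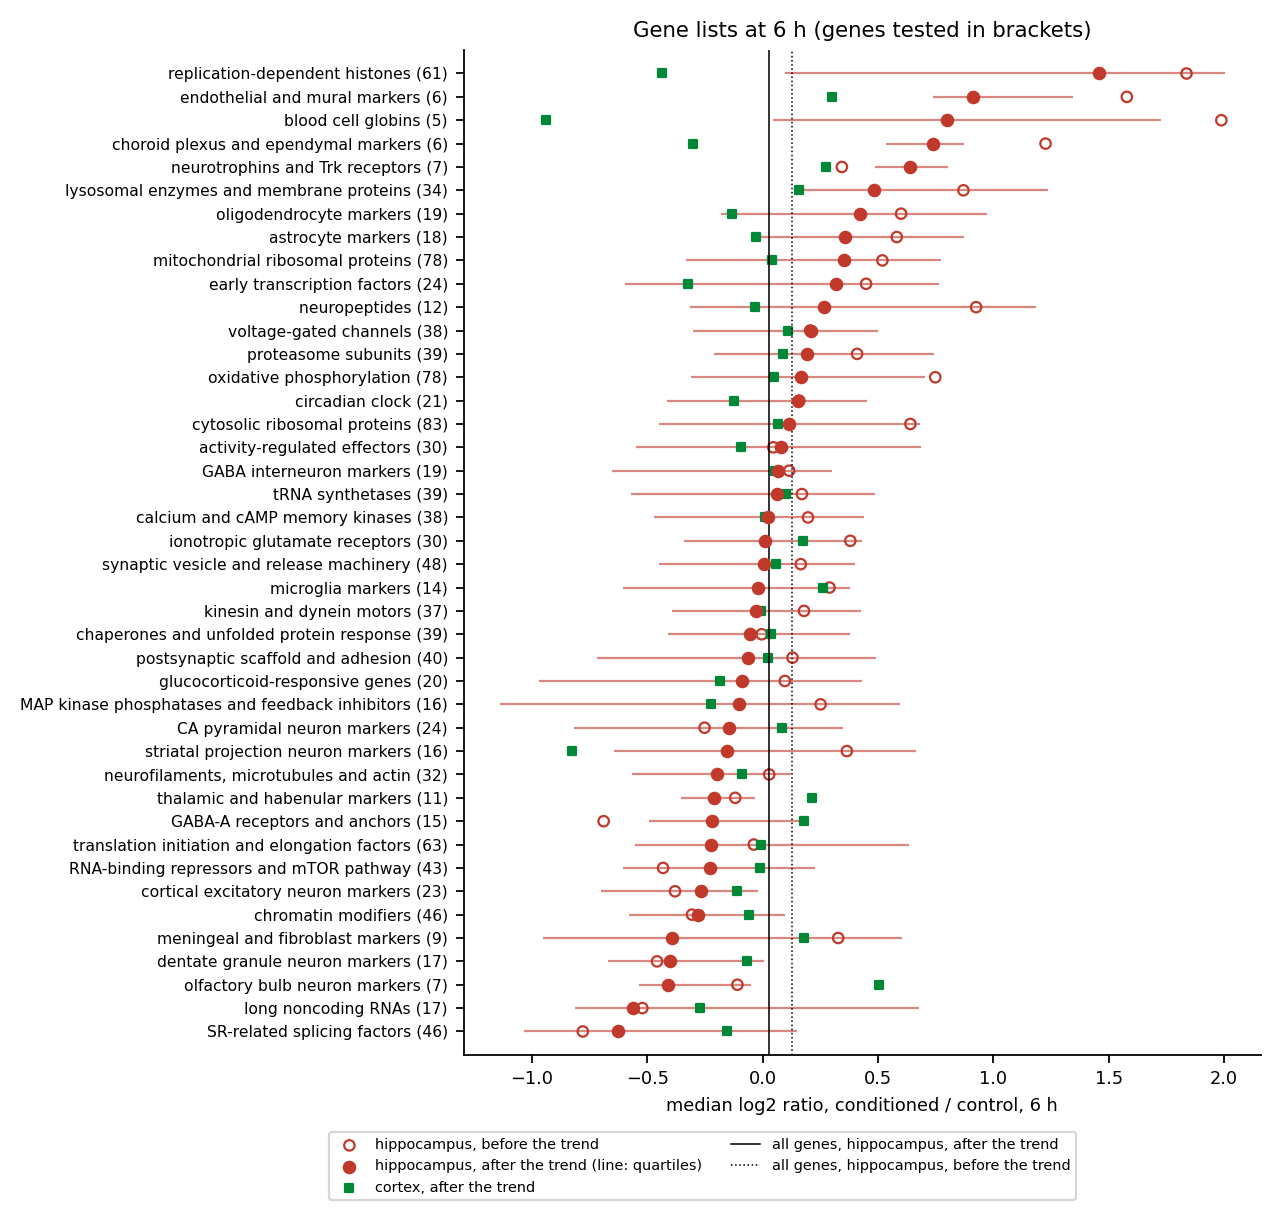
Median log2 ratio of conditioned over control for each gene list with at least 5 genes compared: hippocampus before the trend (open circles), after it (filled circles, with quartile lines), and cortex after its trend (squares), with vertical lines at the medians of all genes. Among the filled circles, histone genes lie furthest to the right (1.46) and SR-related splicing factors furthest to the left (-0.63). The SR-related list was put together after the values of its leading members were seen. Of the lists not added in this way, long noncoding RNAs lie furthest to the left (-0.56).

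Chromatin modifiers lay to the lower side. Their median log2 ratio was -0.31 before and -0.28 after the trend (all genes 0.13 and 0.03), and 14 of 46 were above 0 after it. Of 46 chromatin modifiers, 3 were higher and 5 lower before the trend and none higher and 3 lower after it: Mbd2, the histone demethylase Kdm6b (0.281 [0.194 to 0.409]) and the remodeller Chd3 (0.386 [0.359 to 0.415]). The lower calls are 10.9% of the list before and 6.52% after, against 4.34% and 2.58% of all genes. Hdac5, a histone deacetylase that shuttles to the cytoplasm with calcium signals, rose before the trend (4.97 [3.51 to 7.23]) and was not called after it (2.25 [1.59 to 3.27]). Of 21 clock genes 1 was higher, Nr1d1 (2.95 [2.48 to 3.52]), and 1 lower, Rorb (0.317 [0.231 to 0.434]), before the trend, and Csnk1e alone was lower after it (0.394 [0.323 to 0.481]). Each is 4.76% of the list, against 6.37% of all genes higher and 4.34% lower before and 2.58% lower after. Of 38 voltage-gated channel genes 2 were higher before the trend and 1 after it, the sodium channel subunit Scn2b (2.87 [2.35 to 3.52]). That is 5.26% and 2.63% of the list, against 6.37% and 1.81% of all genes. No neuropeptide among 12 compared and none of 7 neurotrophin and Trk receptor genes was called.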

How the data were processed

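Polyribosome-associated RNA was made into libraries from 200 ng RNA after removal of ribosomal RNA, with random and poly(A) primers and SPIA amplification, per the labels' protocols. The deposited table holds raw counts per RefSeq transcript for 8 libraries. The submitters' processing notes list CASAVA 1.7, TopHat 1.3.1, edgeR 2.612, limma 3.12.3 and build mm9, with no role or order. Neither the counting tool nor strandedness is named in any source used here. Of the transcript identifiers 98.1% matched a gene symbol. GC content and length came from GENCODE M21 transcripts (GRCm38), so no coordinates of the counts are given.

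Computed here were TMM factors over the 8 libraries (edgeR 4.0.16), exact binomial 95% intervals (scipy 1.17.1), and log2 ratios with a prior count of 2. The trend was fitted with natural splines (patsy 1.0.2, 5 degrees of freedom each) in GC content and log2 length, and 27 compared genes had neither. The intervals and the trend were also tested on simulated counts. A further 45 compared genes carry the counts of another gene.

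Named genes are the 10 furthest past 2-fold in each direction by the near bound of the interval, before and after the trend, 12 activity and stress genes, and per list up to 4 members furthest past 2-fold plus those against the list's median. Marker and class genes beyond this (Prox1, Dsp, Kl) were chosen after their values were seen. Some genes these rules name are not reported here. The 2 libraries, the gene lists and 3 added lists were chosen with earlier results of these data known. Alternatives were other scalings (total counts, DESeq2 1.42.0 size factors), filters, row sums, trends, prior counts and the 1 h control library.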

Additional observations from a re-analysis of the deposited data

Results flagged for a closer look

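Each value here has opposite directions in the hippocampus and cortex pairs at 6 h, with 1 library a side, so the difference between tissues was not tested. After each pair's trend, the median log2 ratio was 1.46 in hippocampus and -0.44 in cortex for histones, 0.32 and -0.32 for early transcription factors, and -0.41 and 0.50 for olfactory bulb markers. It was 0.74 and -0.30 for choroid plexus markers and 0.80 and -0.94 for globins.

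Of single genes, with counting intervals on opposite sides of 1 before the trend, Arc had a ratio of 1.72 in hippocampus and 0.227 in cortex, Egr1 1.32 and 0.668, and Nr4a1 3.33 and 0.520. In the other direction C1ql3 had 0.184 and 1.32, Hmgn5 0.142 and 1.37, Ppig 0.133 and 1.10, Pter 0.134 and 1.27, and Slc25a4 0.224 and 1.48. After the trend Arc was at 0.821 in hippocampus and 0.237 in cortex, Egr1 at 0.963 and 0.672, on the same side of 1, and Nr4a1 at 1.74 and 0.529, with a hippocampal interval of 0.925 to 3.61 that includes 1. The other 5 kept opposite directions: C1ql3 0.138 and 1.32, Hmgn5 0.219 and 1.29, Ppig 0.271 and 1.08, Pter 0.244 and 1.23, and Slc25a4 0.180 and 1.44, where the cortex intervals of Hmgn5 and Ppig include 1. Before the trend, in hippocampus C1ql3, Hmgn5, Ppig, Pter and Slc25a4 were called past 2-fold, and in cortex Arc alone was.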

How the results depend on the processing

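The calls depended on which control library was used. With the hippocampal control at 1 h in place of that at 6 h, 106 genes were higher and 534 lower before the trend, and 41 and 158 after it. Only ratios called past 2-fold and list medians of the log2 ratio at least 1 from 0 were checked for a change of side. Of these, 44 values crossed to the other side of 1 (of 0 for list medians), whatever their interval. Smaller differences were not counted, and some crossed too, among them Egr1 (1.32 to 0.589 before the trend), Arc (1.72 to 0.468) and Nr4a1 (3.33 to 0.445). The ratio before the trend then was C1ql3 1.73, Ccdc186 2.72, H2bc12 0.593, H2bc22 0.649, H2bc23 0.59, H2bc7 0.59, H2bc9 0.661, H4bc24 0.59, Hmgn5 2.36, Homer1 1.06, Kif5c 13.7, Luc7l3 2.1, Mphosph8 2.16, Nefm 1.55, Nsg2 0.941, Pfn1 0.957, Ppig 3.45, Prdm8 1.0, Pter 1.64, Sh3rf3 1.11, Slc25a4 2.03 and Upf3b 1.74. After the trend it was C1ql3 2.07, Ccdc186 2.13, H2bc23 0.875, H2bc9 0.654, H4bc24 0.877, Hmgn5 1.98, Kif5c 10.5, Luc7l3 1.45, Mbd2 1.36, Mphosph8 1.59, Nefm 1.73, Ppig 1.97, Prdm8 1.06, Pter 1.06, Sh3rf3 1.17, Slc25a4 2.63, Upf3b 1.39 and Zbtb12 1.64. Counting intervals that include 1 show a lost difference, with no direction given. These are Homer1, Nsg2, Pfn1, Prdm8 and Sh3rf3 before the trend. After it they are H2bc23, H4bc24, Mbd2, Prdm8, Pter, Sh3rf3, Upf3b and Zbtb12. The median log2 ratio before the trend became -0.75 for histones, -0.044 for endothelial markers, -0.045 for choroid plexus markers and -1.69 for globins, and after it 0.28, 0.05, 0.32 and -0.49, so that the globins alone of these 4 stayed reversed. The cause was not tested, and time differs too. Scaling moved the median log2 ratio of all genes from 0.13 to 0.48 with total counts and 0.38 without Kif5c. Calls before the trend became 1376 higher and 203 lower, and 1174 and 265, against 771 and 525. With the ratio itself past 2-fold, 3120 and 1515 genes were called before and 2057 and 1226 after the trend, as no interval is asked for. A trend in length alone left 554 higher and 653 lower. The share of variance was 31.2% with no filter on low counts and 43.1% with at least 200 counts in the pair, an alternative chosen after seeing the data. The other 34 summary values stayed within 1.5 times (or 5 percentage points) of those reported, and, apart from the 1 h control, 562 of 572 ratios of named genes kept their side of the 2-fold rule and none reversed. Leaving out a replicate was not possible with 1 library a side. No paired analysis was possible because the groups compared share a single replicate number. Depth limits genes with few control counts, Fos among them.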
